A study of Drosophila melanogaster with 16 samples.

Results

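Brains of starved and fed female Drosophila melanogaster were compared on 8 one-colour Agilent arrays, 4 labelled 28 h starved and 4 labelled fed, out of 16 arrays in the series (the other 8 held antennae of the same groups). The members are therefore all brain arrays, chosen by their tissue label alone. Flies of both groups were females aged 5 to 7 days, and no allele, transgene or drug is named for either group. By the methods, starved flies had moist tissue only and fed flies had access to a sucrose solution under otherwise equal conditions, so fed means sugar-fed. Each extract pooled 50 brains of 50 flies, each array held 1 extract, and the labels do not say whether the 4 extracts of a group came from separate cultures, so p-values measure the spread between these extracts. On such an array cyanine 3-labelled copies of the RNA bind to short DNA oligomers printed in spots, whose fluorescence is scanned. A level is given here as log2 of the ratio between the signal and the array's 75th percentile, and a change is the mean level of the arrays labelled starved minus that of the arrays labelled fed.

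The fly brain burns sugar that glia take up from the hemolymph as trehalose, and it also houses the peptide neurons that sense and signal nutrient state. When food is missing, insulin signalling falls, the transcription factor foxo becomes active, and genes for lipolysis, gluconeogenesis and translational restraint are usually raised in the fly's tissues. Sugar does the reverse and raises the transcription factor gene sug (sugarbabe) and lipogenic genes. The fat body, the fly's liver and adipose tissue, lies around the brain in the head capsule, makes yolk proteins, lipoproteins and humoral immune factors, and is easily carried along in dissection. In such an RNA pool, fewer cells of a type and less RNA per cell cannot be told apart.

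Markers set the brain arrays apart from the antennal ones. The summed level of 22 neuronal genes was 2.87 times that of the antennal arrays, that of 44 peptide precursor genes was 8.69 times, and that of 67 antennal genes was at 0.0232 of the antennal level. Photoreceptor (1.68 times), fat body (2.59), hemocyte (2.09) and gut genes (3.89) also summed higher than in antennae, and muscle (0.519) and cuticle genes (0.184) lower. The extracts thus also held RNA of tissues around the brain, whose share was not tested. Spots well above background made up 66.4 to 70.2% on the arrays labelled starved and 70.9 to 73.6% on those labelled fed, without overlap (exact permutation test, two-sided, p = 0.0286, the smallest that 4 against 4 arrays allow). The 75th percentile itself was 820.5 to 1012 on the arrays labelled starved and 710.1 to 883.4 on those labelled fed, which overlapped (exact permutation p = 0.143), and no spot was saturated. Starved brains lay at 1 position and fed brains at another on each of the 4 slides, so position and group cannot be told apart. Each slide held 1 brain array of either group, so the fit was repeated with the slide as a block, and its value is given beside a result where it ended the call or moved a count by more than 1.5 times.

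Of 15815 genes and unmatched transcripts tested, 1990 rose (12.6%) and 4063 fell (25.7%) with the starved label, and 93 had probes called both ways (0.588%), in limma with Benjamini-Hochberg adjustment at 0.05. A single called probe is enough here for a gene to count as higher or lower, provided that no probe of it went the other way past the test. The groups did not overlap in 5076 genes (32.1%). At least 2-fold changes were fewer, with 296 genes higher (1.87%) and 1063 lower (6.72%). Signs follow the sample labels throughout. For the brain the study gives a sign for CCHamide without saying which of the CCHamide genes is meant. The gene CCHa1 has the opposite sign here while CCHa2 has the same one. The study also counts more genes up than down in the brain, whereas with this scaling more were lower. For antennae it reports allatostatin and short neuropeptide F as raised. Here the antennal change was −1.85 for AstA (limma adjusted p = 0.00544) and −0.06 for sNPF (adjusted p = 0.533). Over all genes the median change was −0.07, and it was 0.14 with the arrays centred on their median, a shift of about the size of many changes described here. With that centring the calls turned from 32.9% higher to 55.8% higher (2850 higher and 2262 lower), and with quantile scaling they were 50.5% higher. Without the fed array of replicate 4 there were 2303 higher and 5072 lower, and without the starved array of replicate 1 there were 1299 higher.

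The excess of lower calls lay in dim, unmatched transcripts. Among the 10148 named genes tested 16.5% were higher and 19.6% lower, while among the 5667 unmatched transcripts 5.51% were higher and 36.5% lower. In the dimmest 20% of all genes the median change was −0.56, and in the brightest 20% it was 0.10, with 23.5% higher and 18.8% lower. Only 8 genes were well above background on every array labelled starved and on none labelled fed, against 234 the other way. The gene lists described below consist of named genes, and they differ in brightness, with many dim genes among the peptide receptors and cuticle genes. Their counts stand against 12.6% higher and 25.7% lower over all genes and 16.5% and 19.6% over all named genes. For bright lists they stand against 25.2% and 19.1% over the named genes among the brightest 20%. Among the dimmest 20% the named genes were 7.58% higher and 27.0% lower.

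**Figure D1:**
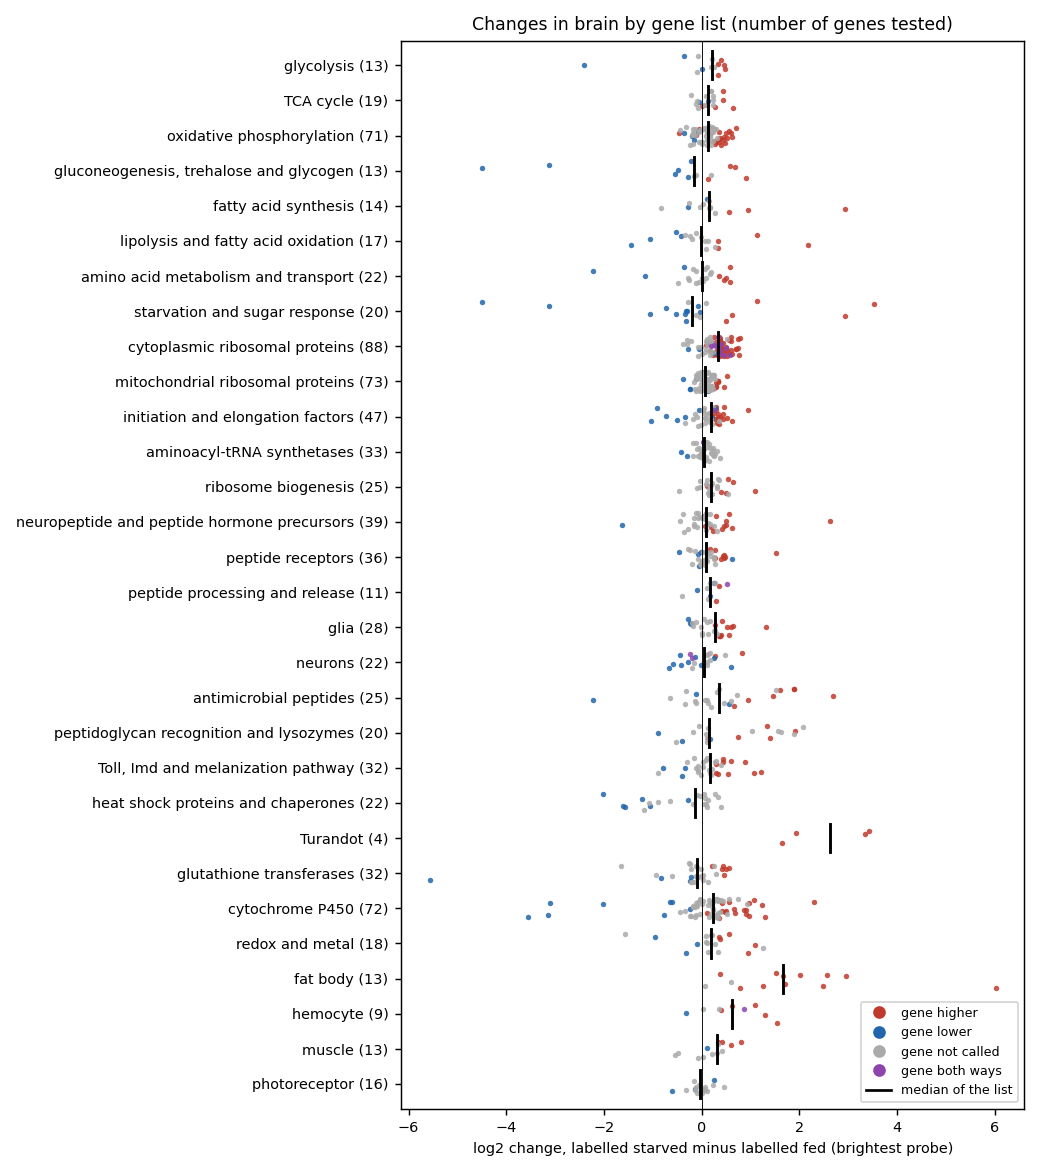
Change of every tested gene in the gene lists, on the log2 scale (x axis, arrays labelled starved minus labelled fed, brightest probe), with 1 point per gene coloured by the call over all its probes and a black bar at the median of each list. The medians of fat body (1.67) and Turandot genes (2.63) stand farthest to the right, and ribosomal protein genes form a narrow group around 0.34.

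The genes that respond to nutrient state had some of the largest changes in the brain, and in both directions. Of 20 genes of this list tested, 5 were higher, 11 lower and 4 not called (80.0% called, against 38.9% of all genes). Pepck1, the cytosolic enzyme that opens gluconeogenesis, had levels of 0.88, 1.34, 0.16 and −0.24 on the arrays labelled starved. On the arrays labelled fed Pepck1 had 3.92, 3.67, 3.26 and 3.82. All 4 fed arrays lay above all 4 starved arrays, and the change of Pepck1 was −3.13 (SE 0.33, limma adjusted p = 0.000963). Its neighbour in function, Pepck2, changed by −4.50 (SE 0.40, adjusted p = 0.000645) and was well above background on 3 of the 4 arrays labelled starved.

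The genes sug, Srg1 and cbt, known to be raised by sugar, moved the other way. The level of sug was 1.36, 1.15, 0.76 and 0.24 on the arrays labelled starved and −2.58, −1.72, −2.28 and −1.69 on those labelled fed. The groups of sug did not overlap, and its change was 2.94 (SE 0.29, adjusted p = 0.000824). Srg1, named for its regulation by sugar, had levels of 0.48, 0.23, 0.72 and 0.64 against −2.92, −2.89, −3.47 and −2.80, the largest increase among genes measured on all 8 arrays (3.54, SE 0.17, adjusted p = 0.000118). Both probes of Srg1 were higher, by 3.54 and 3.10. The transcription factor gene cbt (cabut), also raised by sugar, increased by 1.13 (SE 0.10, adjusted p = 0.000645), from 1.26 to 1.61 on the fed arrays to 2.44 to 2.73 on the starved arrays.

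A lipase gene and several growth-restraint genes were lower in the arrays labelled starved. The lipase gene bmm (brummer), which mobilises fat, had levels of 1.74, 1.50, 2.10 and 2.40 against 3.07, 2.79, 2.75 and 3.35, and all 3 of its probes were lower, by −1.05, −1.60 and −1.36. The gene of the translation repressor Thor (4E-BP) was at 3.12, 3.14, 3.37 and 3.15 against 4.14, 3.46, 3.69 and 4.42 (change −0.73, SE 0.20, adjusted p = 0.0261, or 0.0507 with the slide as a block). For Thor the fed arrays spread widely while the starved arrays lay close together, and its call was also lost with median centring (−0.53, adjusted p = 0.101). The gene of foxo itself changed by −0.52 (SE 0.12, adjusted p = 0.0138), those of the TORC1 inhibitor scyl by −0.34 and of REPTOR, a transcription factor held back by TORC1, by −0.32. The insulin receptor gene InR was lower by 3 of its 5 probes, although its brightest probe gave −0.08. In contrast, Ilp6, an insulin-like peptide gene that fasting raises in the fat body, was higher by 0.63 (SE 0.09), as was Ilp3 by 0.51 (SE 0.10). The lipase gene Lip4 (−0.11), also known to rise without food, and the carnitine transferase gene whd (0.10) were not called. The list median was −0.19, and it became 0.02 with median centring. The labels were used as given, and whether the labelled groups match the treatments was not tested.

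**Figure D2:**
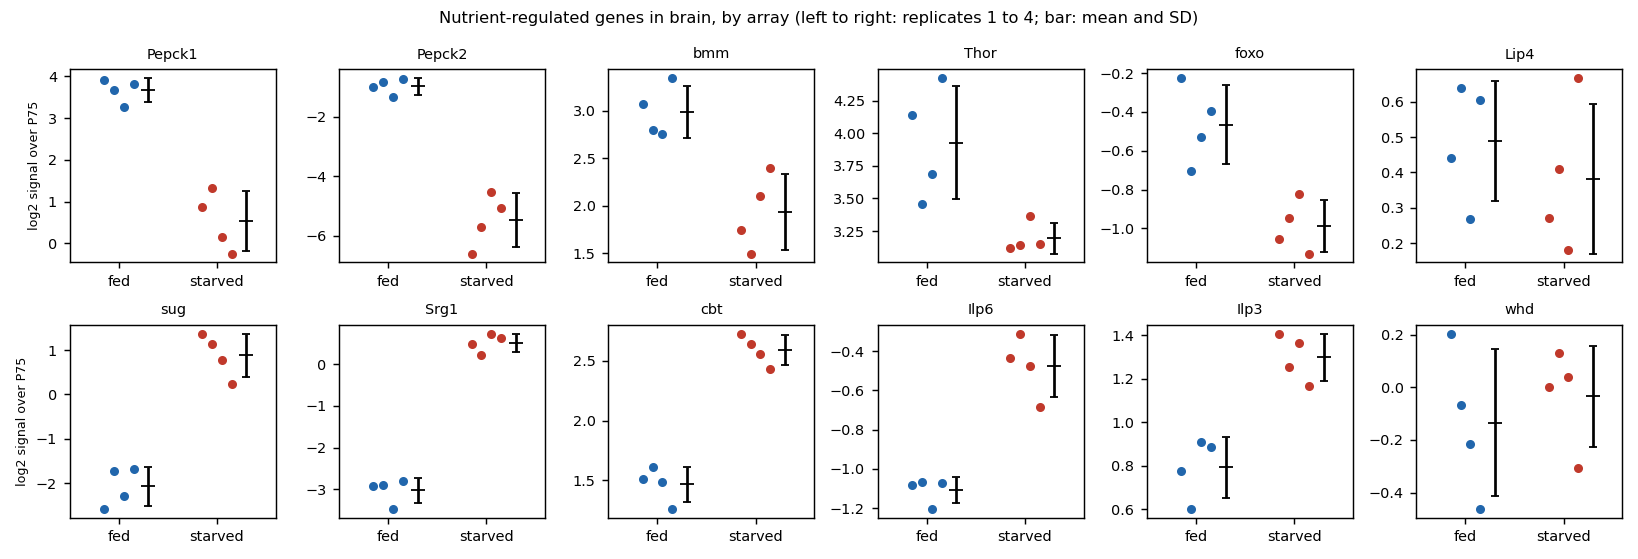
Level of 12 nutrient-regulated genes on each brain array (y axis, log2 of the signal over the array's 75th percentile), labelled fed in blue and starved in red, with the mean and SD beside 4 points per group. Pepck1, Pepck2, bmm, Thor and foxo lie lower and sug, Srg1, cbt, Ilp6 and Ilp3 higher in the arrays labelled starved without overlap, while Lip4 and whd overlap.

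Fat body transcripts were higher on every array labelled starved. The summed level of 16 fat body genes was 248, 198, 201 and 156 on the 4 arrays labelled starved, in units of the 75th percentile. It was 99.5, 99.3, 85.2 and 81.8 on the arrays labelled fed. The groups did not overlap, and the mean was 2.20 times as high in the arrays labelled starved (exact permutation test, two-sided, p = 0.0286). Of 13 fat body genes tested, 11 were higher and none lower, with a median change of 1.67, beside 12.6% higher over all genes. Within the 4 slides the median difference of the list was 1.90, 1.23, 1.78 and 1.74.

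The yolk protein genes, female products that feed the oocyte, all increased. Yp1 was at 5.76, 5.05, 5.04 and 4.80 against 3.53, 3.53, 2.85 and 2.63, a change of 2.02 (SE 0.27, adjusted p = 0.00192), and Yp2 (2.50) and Yp3 (1.25) rose too. The lipophorin gene apolpp, which encodes the lipid carrier of hemolymph, increased by 1.67 (SE 0.14, adjusted p = 0.000583), and the clotting factor gene fon by 1.53 (SE 0.16) with all 3 of its probes higher. The gene fit (female-specific independent of transformer) had levels of 0.36, 0.25, −0.85 and −1.64 against −6.53, −4.30, −6.79 and −8.38. It was well above background on only 2 of the 4 arrays labelled fed, so its change of 6.03 (SE 0.83) rests partly on dim spots. The storage protein gene Lsp2 was higher by 2.57 (SE 0.64, adjusted p = 0.0188), although its starved array of replicate 4 (−4.22) fell below the fed array of replicate 2 (−3.79), and the odorant-binding protein gene Obp99b increased by 2.96 (SE 0.39). Of 6 fat body genes marked as defining and tested all were higher, but fit was tested only through the arrays labelled starved, where it is high. In contrast, Fbp1, a receptor of larval storage proteins, and Lsp1alpha were not well above background on any brain array. Tsf1, the transferrin gene, changed by 0.07 (adjusted p = 0.633) and Lsp1gamma by 0.60 (adjusted p = 0.505), and neither was called.

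Hemocyte genes changed in part. Of 9 tested, 5 were higher, 1 lower, 1 both ways and 2 not called. Among the 5, He was well above background on only 1 of the 4 arrays labelled fed and was tested only through the arrays labelled starved. The summed level of 9 hemocyte genes was 32.9 to 40.6 on the arrays labelled starved and 24.5 to 25.3 on those labelled fed (1.45 times, exact permutation p = 0.0286), but the collagen gene Col4a1 made up 52.4% of it. The brightest probe of Col4a1 rose by 0.86, and of its 3 probes 2 were called higher and 1 lower. Without Col4a1 the sums overlapped, at 13.3 to 16.5 against 13.0 to 14.6 (1.14 times, exact permutation p = 0.0857). NimC1, a phagocytosis receptor, increased by 1.30 (SE 0.13), Hml (hemolectin) by 1.09 (SE 0.14) and eater by 0.62 (SE 0.13), whereas the peroxidasin gene Pxn changed by 0.03 and was not called. The scavenger receptor gene crq was lower (−0.31, adjusted p = 0.032) by 1 of its 3 probes. With the slide as a block crq was no longer counted as lower. Muscle genes summed to 39.7 to 51.4 against 24.2 to 37.6 (1.40 times, exact permutation p = 0.0286), with 4 of 13 genes higher (2 with the slide as a block), and photoreceptor genes to 296 to 386 against 289 to 399 (exact permutation p = 0.829). Genes of digestive enzymes varied most between extracts, with sums of 17.3, 257, 390 and 142 on the arrays labelled starved and 242, 27.1, 143 and 23.5 on those labelled fed, and the groups overlapped (exact permutation p = 0.371). The part of these tissues in the other results was not tested. The fat body ratio is repeated below beside some results that were also higher in the arrays labelled starved. No relation between them over single arrays was computed.

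**Figure D3:**
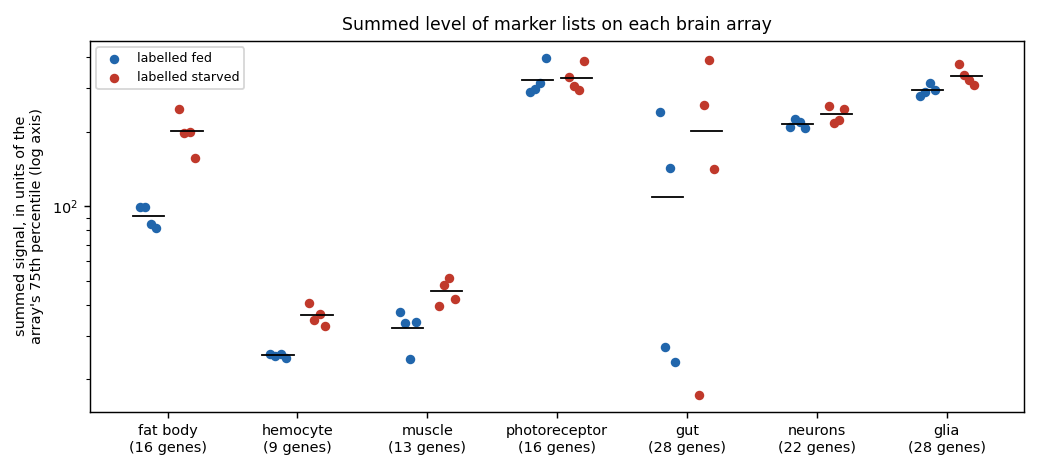
Summed level of 7 marker lists on each brain array (y axis, log scale, in units of the array's 75th percentile), with 4 points per labelled group and a bar at the mean. Fat body sums are 156 to 248 in the arrays labelled starved and 81.8 to 99.5 in those labelled fed, gut sums spread over more than a factor of 10 in both groups, and photoreceptor sums overlap.

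Energy metabolism split by pathway. Of 13 glycolysis genes tested 5 were higher and 3 lower (3 and 2 with the slide as a block), with a median of 0.21. Ldh, which turns pyruvate into lactate, was at −2.16, −0.93, −1.44 and −2.55 on the arrays labelled starved and at 0.21, −0.60, 0.79 and 2.16 on those labelled fed. The fed arrays of Ldh spread widely without reaching the starved ones, and it decreased by 2.41 (SE 0.59, adjusted p = 0.0173, or 0.0575 with the slide as a block). The hexokinase gene Hex-A was also lower (−0.37, SE 0.07), and 5 of the 10 genes between hexokinase and Ldh were higher. Gapdh1 rose by 0.34 on both of its probes, while the triose phosphate isomerase gene Tpi (0.47) and the pyruvate kinase gene PyK (0.40) were called by 1 of 2 probes that disagreed. The phosphofructokinase gene Pfk (0.33) was called by 1 of its 3 probes (adjusted p = 0.0634 with the slide as a block). Eno, the enolase gene (0.46), was fitted without the fed array of replicate 3, where its spot was an outlier, and lost its call with the slide as a block (adjusted p = 0.0556). The genes Pgi (0.25), Gapdh2 (0.19), Pglym78 (0.21) and Pgk (−0.06) were not called, and the aldolase gene Ald1 was lower by 2 of its 5 probes.

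Mitochondrial energy genes had small positive medians, near the median of 0.11 of the bright named genes. Of those bright named genes 25.2% were higher and 19.1% lower. Of 19 genes of the citric acid cycle 6 were higher and 2 lower (4 and 1 with the slide as a block), with a median of 0.12, and Mdh2, the mitochondrial malate dehydrogenase gene, was at 6.80, 6.18, 6.57 and 6.82 against 5.88, 5.99, 5.82 and 6.09 (change 0.65, SE 0.15, adjusted p = 0.0141). Of 71 genes of oxidative phosphorylation 23 were higher (32.4%) and 5 lower (7.04%), with a median of 0.14. The cytochrome c gene Cyt-c-p (0.71), the complex I gene ND-B22 (0.61) and the ATP synthase gene ATPsynD (0.61) showed the largest increases there, and the complex I gene ND-MLRQ was lower (−0.35). With quantile scaling the median of the oxidative phosphorylation list was 0.02, and with median centring it was 0.35.

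Sugar storage genes moved in opposite directions. Of 13 genes for gluconeogenesis, trehalose and glycogen, 4 were higher and 6 lower. Besides the Pepck genes, the trehalase gene Treh, whose enzyme splits trehalose into glucose, was lower at 5.02, 4.63, 4.97 and 4.93 against 5.44, 5.16, 5.59 and 5.56 (change −0.55, SE 0.13, adjusted p = 0.0145). The fructose bisphosphatase gene fbp was lower by −0.48, and that call lay at the threshold (adjusted p = 0.0494, or 0.109 with the slide as a block). In contrast, genes for making trehalose and handling glycogen rose, with 0.57 for the trehalose synthase gene Tps1, 0.68 for the branching enzyme gene AGBE and 0.90 (SE 0.10, adjusted p = 0.00112) for CG9485, which encodes a glycogen debranching enzyme. All 4 starved arrays of CG9485 (2.90 to 3.25) lay above all 4 fed arrays (2.05 to 2.27). The glycogen synthase gene Glys (−0.12) and the phosphorylase gene Glyp (0.18) were not called. The list median of −0.15 became 0.05 with median centring.

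Fat metabolism showed few but large changes. Of 14 genes for fatty acid synthesis and its control 3 were higher (sug, FASN2 and mdy) and 2 lower (1 with the slide as a block), and the core enzymes were not called, with 0.15 for the fatty acid synthase FASN1 and 0.27 for ACC (adjusted p = 0.0704, or 0.046 with that block). FASN2, a second fatty acid synthase gene, rose by 0.96 (SE 0.09, adjusted p = 0.000848), and mdy, which makes triglyceride, by 0.56. Mondo, the sugar-sensing transcription factor that acts on sug, was slightly lower (−0.29, adjusted p = 0.0417, or 0.0991 with that block). Of 17 genes for lipolysis and fatty acid oxidation 4 were higher and 4 lower (2 and 2 with that block). Lsd-1, the perilipin that coats lipid droplets in fat body, was at 0.05, 0.11, −0.50 and −0.84 against −2.70, −2.72, −2.63 and −1.87 (change 2.19, SE 0.27, adjusted p = 0.00142). The summed fat body level was also higher in the arrays labelled starved (2.20 times), and its part here was not tested. Among the fed arrays Lsd-1 was highest on replicate 4, where the fat body sum was lowest (81.8). Lpin, a phosphatidate phosphatase and regulator of fat storage, was lower at 1.34, 1.17, 1.66 and 1.89 against 3.19, 2.59, 2.99 and 3.09 (change −1.45, SE 0.19, adjusted p = 0.00168), the sign opposite to that of Lsd-1 in the same extracts. The acyl-CoA dehydrogenase gene Mcad was lower (−0.53, adjusted p = 0.062 with that block) and the peroxisomal oxidase gene Acox57D-d higher (1.14, SE 0.17).

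Genes of amino acid use followed no single direction. Of 22 tested, 5 were higher and 3 lower, with a median of 0.02. Gnmt, the glycine methyltransferase that consumes S-adenosylmethionine, was at −0.81, −0.36, −0.65 and −1.29 against 1.19, 1.75, 1.11 and 1.73, and Ahcy, which acts on its product, was lower as well. Gnmt changed by −2.22 (SE 0.23, adjusted p = 0.000912) and Ahcy by −1.16 (SE 0.16, adjusted p = 0.00216), so both of these neighbouring enzymes of the methionine cycle were lower. The glutamine synthetase gene Gs1 (0.58) and the amino acid transporter genes slif (0.59) and mnd (0.50) were higher.

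The genes of the cytoplasmic ribosome were mostly higher, by small amounts. Of 88 tested, 51 were higher (58.0%, against 12.6% of all genes and 25.2% of the bright named genes), 4 lower, 11 both ways and 22 not called, and the median was 0.34. Among the increases were those of RpS13 (0.80), RpS10b (0.75) and RpS15 (0.74). RpS10b was at 5.00, 4.71, 4.95 and 4.99 on the arrays labelled starved and at 4.20, 4.09, 3.98 and 4.37 on those labelled fed, without overlap (SE 0.11, adjusted p = 0.00246), and all 3 of its probes were higher. RpL38 was lower (−0.27, adjusted p = 0.0437, or 0.095 with the slide as a block). Within the 4 slides the median difference was 0.47, 0.31, 0.38 and 0.18, and the list median was 0.18 with quantile scaling and 0.54 with median centring. Of the 56 ribosomal protein genes with more than 1 tested probe, 29 had probes that disagreed, and in the 11 called both ways, such as RpS7 (0.58) and RpS14a (0.19), the brightest probe had a positive change.

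Other translation genes changed in part. Of 47 initiation and elongation factor genes 18 were higher, 8 lower and 1 both ways, with a median of 0.20. The elongation factor genes eEF1delta (0.95, SE 0.13), eEF1alpha1 (0.62) and eEF1beta (0.46) rose, eEF1alpha1 by 1 of its 3 probes. Among the lower genes was eIF4EHP, which blocks the cap, with −1.04 (SE 0.11, adjusted p = 0.00102) by 1 of 2 probes that disagreed. Paip2, which holds back the poly(A)-binding protein, was at 0.48, 0.28, 0.36 and 0.34 against 1.48, 0.94, 1.26 and 1.40, without overlap (−0.91, SE 0.12, adjusted p = 0.00207). Of 25 ribosome biogenesis genes 6 were higher and none lower, led by the nucleolar protein gene nop5 (1.09, SE 0.12), with Non1 (0.64), Nop56 (0.53) and Fib (0.49, the fibrillarin gene) after it. In contrast, only 10 of 73 mitochondrial ribosomal protein genes were higher and 6 lower (5 and 2 with the slide as a block, median 0.07), and of 33 aminoacyl-tRNA synthetase genes none was higher and 2 were lower, with ValRS at −0.42 (adjusted p = 0.0503 with the block, which called none).

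Most peptide genes were not called. Of 39 neuropeptide and peptide hormone precursor genes tested, 11 were higher, 2 lower and 26 not called, and the median was 0.09. Nplp2, which encodes a secreted peptide precursor, was at 6.32, 5.81, 6.28 and 6.01 on the arrays labelled starved and at 3.60, 4.25, 3.11 and 2.94 on those labelled fed. This is the largest increase of the list by its brightest probe (2.63, SE 0.28, adjusted p = 0.00096), while its dim second probe changed by 0.19 (adjusted p = 0.56). The summed fat body level was higher in the same group (2.20 times), and its part in the change of Nplp2 was not tested. The precursor genes of the insulin-like peptides Ilp2 (0.51, SE 0.13, adjusted p = 0.0216, or 0.057 with the slide as a block) and Ilp3 (0.51), made by the insulin-producing cells, were higher, while Ilp5 of the same cells changed by −0.10 (SE 0.25, adjusted p = 0.789). Ilp3 was at 1.41, 1.25, 1.37 and 1.17 against 0.78, 0.60, 0.91 and 0.89, and its groups did not overlap.

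Further increases of 0.3 to 0.63 were those of Capa (0.63), CCHa2 (0.57), Crz (0.46, corazonin), natalisin (0.41) and Ms (0.30, myosuppressin, adjusted p = 0.0775 with the slide as a block). CCHa2, whose peptide reports nutrient state to the insulin-producing cells, was at 0.22, 0.24, 0.32 and 0.12 against −0.45, −0.31, −0.23 and −0.41 (SE 0.08, adjusted p = 0.00234). CCHa1, the CCHamide-1 precursor gene, went the other way at −0.58, −0.45, −0.35 and −0.67 against 1.53, 1.77, 0.82 and 0.38 by its brightest probe (−1.64, SE 0.29, adjusted p = 0.00513). The other 2 probes of CCHa1 gave −0.27 (adjusted p = 0.03) and −0.13 (adjusted p = 0.201), and its fed arrays of replicates 1 and 2 were far above those of replicates 3 and 4 on the brightest probe only. Precursor genes of known feeding peptides were not called by their brightest probe, with −0.28 for NPF (adjusted p = 0.146), 0.07 for sNPF (adjusted p = 0.48), 0.09 for Dsk, 0.10 for Tk, 0.17 for Dh44, 0.18 for SIFa and −0.08 for Akh.

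Of 36 peptide receptor genes 10 were higher and 5 lower (6 and 3 with the slide as a block), with a median of 0.10. AkhR, the receptor of adipokinetic hormone and in the fly best known from fat body, was at 0.28, 0.26, −0.29 and −0.63 against −1.68, −1.28, −1.78 and −1.72 (change 1.52, SE 0.22, adjusted p = 0.00254). It is the only receptor gene of the list that changed at least 2-fold, and the part of fat body RNA in its change was not tested. SPR, the sex peptide and myoinhibitory peptide receptor gene, rose by 0.48 (SE 0.09), the diuretic hormone receptor gene Dh44-R2 by 0.46, CCHa2-R by 0.46 (adjusted p = 0.0578 with that block) and MsR2 by 0.44 (adjusted p = 0.0628 with that block). The receptor gene of CCHamide-1, CCHa1-R (adjusted p = 0.99), the sNPF receptor gene sNPF-R (−0.04, adjusted p = 0.706) and NPFR (−0.28, adjusted p = 0.0788) were not called. Of 11 genes for peptide processing and release 2 were higher, 3 lower and 1 both ways.

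Glial calls leaned higher (39.3% of the genes) and neuronal calls lower (40.9%), beside 25.2% higher and 19.1% lower over the bright named genes. Most of the lower neuronal calls came from dimmer probes only. Of 28 glial genes 11 were higher and 3 lower, with a median of 0.27. The homeobox gene repo, the defining gene of fly glia, was at 2.68, 2.44, 2.51 and 2.53 on the arrays labelled starved and at 1.94, 1.91, 2.07 and 1.82 on those labelled fed (0.60, SE 0.08, adjusted p = 0.00223). Of the transporter genes of the blood-brain barrier glia, CG6126 rose by 1.32 (SE 0.22, adjusted p = 0.0042) and Mdr65 by 0.64 (SE 0.12), whereas the trehalose transporter gene Tret1-1 was lower by 1 of its 2 probes (−0.21 and −1.06). The cortex glia gene wrapper rose by 0.56. The astrocyte gene alrm rose by 0.40 (adjusted p = 0.0293), while the glutamate and GABA transporter genes Eaat1 (0.37) and Gat (0.28) were called only by a dimmer probe, at 0.72 and 0.65. Other glial genes were not called, among them the barrier genes moody (0.25) and Gli (0.13), the neuropil glia gene nrv2 (adjusted p = 0.994) and the glutamine synthetase gene Gs2 (−0.11). The summed level of the 28 genes was 309 to 375 against 280 to 316 and overlapped (exact permutation p = 0.0571).

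Of 22 neuronal genes 2 were higher (1 with the slide as a block), 9 lower and 2 both ways, with a median of 0.04 that was −0.05 with quantile scaling and −0.09 over the probes of a gene. The synaptobrevin gene nSyb, needed for vesicle release, was at 3.14, 3.31, 3.21 and 2.99 against 3.77, 3.68, 3.87 and 3.65 (−0.58, SE 0.09, adjusted p = 0.00363), and the potassium channel gene Sh was lower too (−0.67, SE 0.13). Vmat, the vesicular monoamine transporter gene, was higher at 5.44, 5.13, 5.38 and 5.56 against 4.62, 4.68, 4.47 and 4.41 (0.83, SE 0.11, adjusted p = 0.0019), with 2 of its 5 probes called, so its sign was opposite to that of nSyb. The pan-neuronal gene elav (0.13, adjusted p = 0.473) and the transmitter synthesis genes Gad1 (0.16), ple (0.16), Tdc2 (0.10) and Trhn (0.11) were not called. Of the 15 neuronal genes with more than 1 tested probe, 11 had probes that disagreed, beside 37.1% over all such genes. Of the 9 genes counted as lower, Sh, nSyb and eag (−0.43) were called by their brightest probe. The lower calls of brp, para, VGlut, cac, ChAT and Rdl rest on dimmer probes alone. In ChAT (0.25) and Rdl (0.60) the brightest probe had a positive change.

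Several antimicrobial peptide genes were higher, most of them Bomanin genes, while others were lower or not called. Of 25 antimicrobial peptide genes 7 were higher (28.0%, beside 16.5% of all named genes and 25.2% of the bright ones) and 3 lower, with a median of 0.36. Bomanin genes, short peptide genes induced by Toll in the fat body, rose for BomBc2 (1.89), BomBc1 (1.88), BomS3 (1.60), BomBc3 (1.47) and BomT2 (0.96). BomBc2 was at 5.28, 5.25, 4.88 and 4.42 against 3.24, 3.19, 2.60 and 3.24 (SE 0.23, adjusted p = 0.00133), and all 3 of its probes were higher. BomT3 of the same family was lower (−2.22, SE 0.61, adjusted p = 0.026) with overlapping groups, by 1 of its 2 probes. The defensin gene Def rose from −5.66, −4.31, −5.21 and −4.03 to −1.50, −1.09, −2.35 and −3.50 (2.69, SE 0.56, adjusted p = 0.0098), by 1 of its 2 probes. The Imd-induced peptide genes DptA (−0.35, SE 0.85), AttA (−0.12, SE 0.39) and CecA1 (0.06, SE 0.76) had large standard errors and were not called. The Toll-induced drosomycin gene Drs gave 0.47 (SE 0.24, adjusted p = 0.169) and was not called either.

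The shares of recognition and signalling genes of immunity called higher stand beside 16.5% of all named genes and 25.2% of the bright ones. Of 20 recognition and lysozyme genes 5 were higher (25.0%) and 3 lower, and of 32 genes of the Toll, Imd and melanization pathways 10 were higher (31.2%) and 3 lower. PGRP-SD, a peptidoglycan sensor, was at −3.57, −3.52, −3.37 and −3.79 against −5.16, −5.30, −5.76 and −5.69 (1.92, SE 0.16, adjusted p = 0.000562). The fungal glucan sensor gene GNBP3 rose by 1.40 (SE 0.14), PGRP-SA by 0.76 (SE 0.13) and the amidase gene PGRP-SB1 by 1.35 (SE 0.40). The largest increases among the pathway genes were those of the extracellular cascade, with the protease genes SPE (1.22, SE 0.20), psh (0.90, SE 0.14) and grass (0.60), the serpin gene nec (1.08, SE 0.10), and spz, the gene of the Toll ligand (0.53), while the protease gene modSP of the same cascade was not called (0.20, adjusted p = 0.243). The intracellular adaptor gene Myd88 and the kinase gene IKKbeta were higher as well, by 0.30 and 0.34, and lost their calls with the slide as a block (adjusted p = 0.108 and 0.0897). The intracellular kinase gene pll was lower (−0.79, SE 0.18, adjusted p = 0.0146), as were the JAK gene hop (−0.40) and the caspase gene Dredd (−0.33), and the transcription factor genes Dif (−0.12) and Rel (−0.08) were not called. Most of the extracellular factors are made in fat body or hemocytes. The summed fat body level was higher in the same group (2.20 times), and its part here was not tested.

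Stress genes differed by family. All 4 Turandot genes tested were higher, secreted stress peptides made by the fat body, and 4 others of the 8 on the array were too dim to be tested. TotC was at 0.01, −1.08, −0.73 and −2.28 against −3.57, −3.02, −5.52 and −5.70 (3.43, SE 0.71, adjusted p = 0.00949), and TotM (1.92), TotA (1.65) and TotX (3.34) also rose. TotX was well above background on 2 of the 4 arrays labelled fed. The fed arrays of replicates 3 and 4 were the lowest for all 4 genes, and the part of fat body RNA in these increases was not tested. Of 22 heat shock genes tested none was higher and 6 were lower (27.3%, near the 25.7% lower over all genes). Hsp27 was at −1.68, −1.18, −2.37 and −2.37 against −0.11, −0.20, −0.60 and −0.40 (−1.57, SE 0.27, adjusted p = 0.00486), by 1 of its 4 probes, and Hsp26 changed by −1.06. With the slide as a block Hsp27 alone of the 6 was still called, and Hsp26 (adjusted p = 0.0784) was not. Hsp70Ba (−2.03), Hsp70Bb (−1.61) and Hsp70Bc (−1.21) were lower with overlapping groups (adjusted p = 0.0586, 0.072 and 0.0692 with that block), and these near-identical copies may share signal. The constitutive chaperone genes Hsp83 (0.11) and Hsc70-4 (0.28) were not called. The list median of −0.13 was 0.08 with median centring.

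Detoxification genes held both extremes. Of 72 cytochrome P450 genes 19 were higher and 8 lower, with a median of 0.24. Cyp4e3 was at −1.48, −1.73, −1.85 and −2.51 against 1.33, 1.88, 1.51 and 1.95 (−3.56, SE 0.23, adjusted p = 0.000428), with all 3 probes lower. The neighbouring near-identical genes Cyp12d1-p (−3.14) and Cyp12d1-d (−3.12) cannot be separated with confidence, and Cyp4g1, the oenocyte enzyme of cuticular hydrocarbon synthesis, was lower by −2.02. The largest increase was that of Cyp4ac2, at −1.56, −1.81, −1.73 and −1.91 against −4.28, −3.54, −4.47 and −3.98 (2.31, SE 0.19, adjusted p = 0.000579), followed by Cyp305a1 (1.29), Cyp4d20 (1.24) and Cyp312a1 (1.07). Of 32 glutathione transferase genes 6 were higher (2 with the slide as a block) and 5 lower, with GstE3 (0.56, adjusted p = 0.0649 with the block), GstE10 (0.43) and GstE12 (0.43) among the higher ones, GstD7 was lower (−5.57) but well above background on only 3 of the 4 arrays labelled starved, and the list median of −0.10 was 0.10 with median centring. Of 18 redox and metal genes 5 were higher and 3 lower. The catalase gene Cat was at 4.04, 4.01, 4.25 and 4.03 against 2.77, 2.98, 3.03 and 3.15 (1.10, SE 0.10, adjusted p = 0.000656), and the peroxiredoxin genes Prx2 (0.95) and Prx3 (0.56) and the superoxide dismutase gene Sod1 (0.37, adjusted p = 0.0523 with the block) rose as well.

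Genes of other tissues, included to see which RNA the extracts held, were called to unequal extents, beside 12.6% higher and 25.7% lower over all genes. The tested ovary and testis genes are mostly dim. In the dimmest 20% of all genes 4.11% were higher and 41.1% lower, and of the named genes there 7.58% and 27.0%. The small counts below are not read as an excess over these shares. Of 7 ovary genes tested, mostly of the eggshell, 5 were lower (3 with the slide as a block) and none higher, and the summed level of all 18 on the array was low at 0.317 to 0.495 against 0.53 to 0.846. Of 16 genes of testis and male accessory gland 6 were lower and none higher. Of these, Mst84B, Acp63F and Mst36Fa were well above background on 0, 1 and 1 of the 4 arrays labelled starved. They entered the test only through the arrays labelled fed, so their calls add little. Of 44 cuticle genes 9 were higher and 9 lower, of 25 antennal genes 1 was higher and 2 were lower (2 and 1 with that block), of 16 photoreceptor genes 3 were lower, and of 20 gut genes 1 was lower. That gut gene, mag, was well above background on 0 of the 4 arrays labelled starved, so it too was tested only through the arrays labelled fed. Of the 2 genes of the corpora cardiaca and allata, jhamt, which makes juvenile hormone, was higher (0.51) and Akh was not called.

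Over all named genes the largest decreases exceeded the largest increases in size. Desi, which the cuticle list holds, was at −4.85, −2.27, −3.15 and −3.49 on the arrays labelled starved and at 4.40, 4.51, 3.02 and 1.82 on those labelled fed (−6.88, SE 0.72, adjusted p = 0.000913), with both of its probes lower. CG9114 (−6.16, SE 0.55), CG16786 (−4.91, SE 0.60), CG14949 (−3.55, SE 0.37) and CG5966 (−3.08, SE 0.45) followed, together with atk (−4.04, SE 0.36), which encodes a leucine-rich repeat protein. The largest increases besides those described were CG32523 (3.31, SE 0.75), a predicted protease gene, CG7227 (3.10, SE 0.18), a scavenger receptor gene, the cathepsin gene CtsL3 (2.90, SE 0.34), CG15282 (2.84, SE 0.77) and phtm (2.78, SE 0.36), the P450 gene phantom of ecdysone synthesis.

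Many of the steepest decreases shared a pattern among the fed arrays. Of 85 probes that were lower by at least 3 on the log2 scale, 65 ranked the fed arrays with replicate 2 highest, then 1, 3 and 4, an order found in 11.6% of all tested probes. CG9114 had this order (3.54, 3.74, 2.11 and 1.46 for replicates 1 to 4), and so did CG16786 (0.54, 0.90, −1.08 and −1.90) and Desi. In contrast, Pepck1, atk (0.91, 0.37, 0.75 and 0.51) and CG5966 (0.77, 1.03, 0.81 and 1.39) had other orders.

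Probes of 1 gene often gave different answers. Of 4096 genes with at least 2 tested probes, 1520 (37.1%) had a probe whose change differed within the arrays from that of the gene's other probes (limma, adjusted p under 0.05). Of these 1520 genes, 98 had all probes called the same way, 1019 some probes called in 1 direction, 310 no probe called and 93 probes called both ways. Among the 2967 genes with 2 probes, 805 disagreed, with a median size of the difference of 0.504, and in 577 of them the brighter probe had the more positive change, as it did in 1908 of all 2967. Only 102 of these genes differed by at least 1 on the log2 scale.

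In 5 of the 8 genes with the largest disagreement, 1 probe fell steeply on the arrays labelled starved while the others changed far less. The brighter probe of the kinase gene Ack was at 1.15, 1.02, 1.24 and 1.41 on the arrays labelled starved and at 0.97, 0.93, 1.09 and 1.12 on those labelled fed. The other probe of Ack was at −5.83, −5.01, −5.48 and −5.75 against 0.90, 1.37, −0.55 and −1.73. The change of Ack was thus 0.18 (adjusted p = 0.201) by one probe and −5.51 (adjusted p = 0.00115) by the other, a within-array difference of 5.69 (SE 0.64, adjusted p = 0.00121). Ctl2, a choline transporter-like gene, gave −0.22, −4.62 and −0.05 by 3 probes, the kinesin-associated gene Kap3 gave 0.12 and −3.97, and the signalling adaptor gene Traf6 gave 0.30, 0.07 and −3.23. Of the 7 probes of CG45049, 1 changed by −3.16 and the others by −0.61 to 0.31, of which 2 were called lower (−0.61 and −0.33). In each of these 5 genes the steep probe ranked the fed arrays with replicate 2 highest and replicate 4 lowest, as CG9114 did. The brightest probe of CCHa1 had the same order of fed arrays.

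Traf6 was thereby called both ways, and so were the 3 other genes with the largest disagreement. The probes of L changed by −2.21 and 0.43, those of CG42326 by −2.27 and 0.95, and those of the homeobox gene ems by −2.14 and 0.71. The 2 probes of L, and likewise those of CG42326, carry 2 different older gene numbers in the array's annotation, so each pair stems from gene models that were later joined. Of the 93 genes called both ways, 10 had probes with more than 1 older gene number.

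Among nutrient, peptide and glial genes the disagreements were smaller. For InR the 5 probes gave −0.08, −0.64, −0.36, −1.10 and −0.73, for Sesn, a stress-induced inhibitor of TORC1, −0.33 and −0.72, and for the trehalose transporter gene Tret1-1 −0.21 and −1.06. For the clock neuron peptide gene Pdf the brighter probe gave 0.06 (adjusted p = 0.724) and a dim probe −1.34, with the dim probe well above background on 3 of the 4 arrays labelled starved. AstA, the allatostatin A precursor gene, gave 0.06 and 0.37, sNPF 0.07 and −0.40, and natalisin 0.41, 0.01 and −0.26. The engulfment receptor gene drpr gave −0.24, −0.89 and −0.40, GLaz −0.17 and 0.09, CNMa −0.44 and −0.14, and Nplp3 0.25 and −0.14. Ilp6 was higher by all 3 of its probes (0.63, 1.06 and 1.24), bmm was lower by all 3 and Srg1 higher by both, so that in these genes the probes differed in size and not in sign. Where a probe lies in its transcript was not used here.

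**Figure D4:**
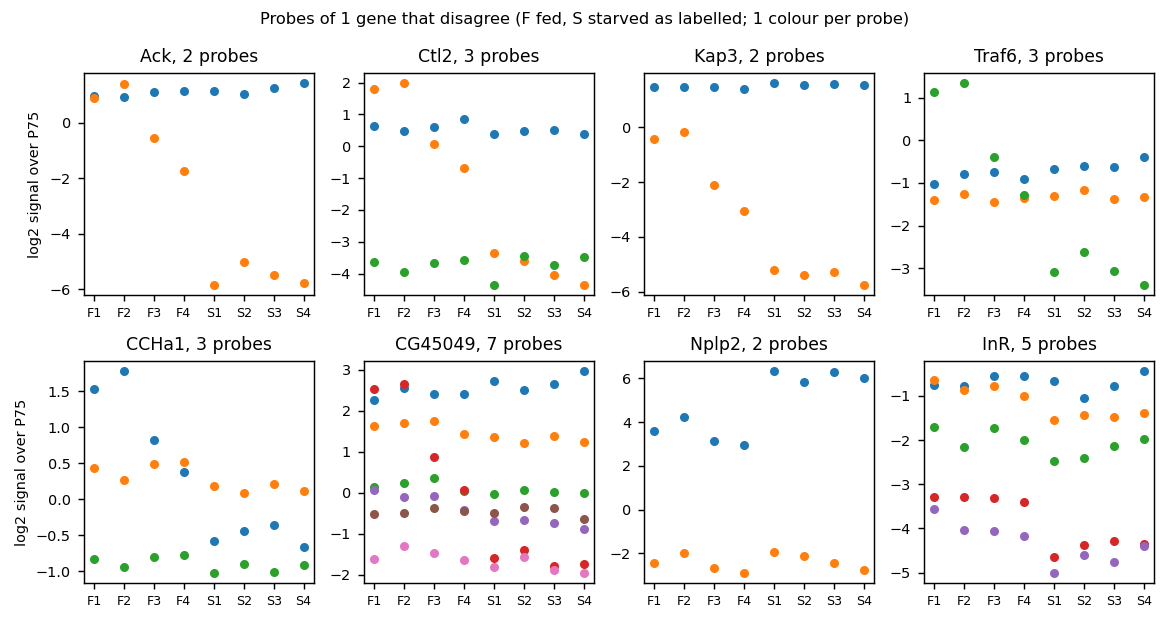
Level of each tested probe of 8 genes on the brain arrays (y axis, log2 of the signal over the array's 75th percentile; F1 to F4 labelled fed, S1 to S4 labelled starved, 1 colour per probe). In Ack, Ctl2, Kap3, Traf6 and CG45049 a single probe is far lower on the arrays labelled starved while the others change by at most 0.61 in size, and in InR the dimmer probes fall more than the brightest one.

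Compared with the antennae of the same groups, few brain changes passed the test of a difference. The brain change differed from the antennal one in 502 of 15815 genes (3.17%), above it in 289 (1.83%) and below it in 213 (1.35%), by the interaction term of a limma fit over 16 arrays. The nutrient genes with the largest changes changed in the same direction in antennae, with −2.97 for Pepck1 (interaction −0.16, adjusted p = 0.898) and 3.21 for Srg1 (interaction 0.33, adjusted p = 0.683). Lipid droplet genes differed. Lsd-1 changed by −0.11 in antennae (interaction 2.30, adjusted p = 0.00196), bmm by 0.09 (interaction −1.14, adjusted p = 0.0323) and Lpin by −0.29 (interaction −1.17, adjusted p = 0.00933). Of 13 fat body genes 3 had a brain change above the antennal one (Obp99b, Lsp2 and fit, of which Lsp2 was too dim for a test in antennae), and of 9 hemocyte genes 5 did, among them Hml (interaction 1.22, adjusted p = 0.00414). Yp1 and Yp2 changed by 0.02 and 0.03 in antennae, and their interaction terms (adjusted p = 0.184 and 0.0646) did not pass the test. Of the ribosomal protein genes, whose antennal median was 0.11, 1 of 88 differed.

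**Figure D5:**
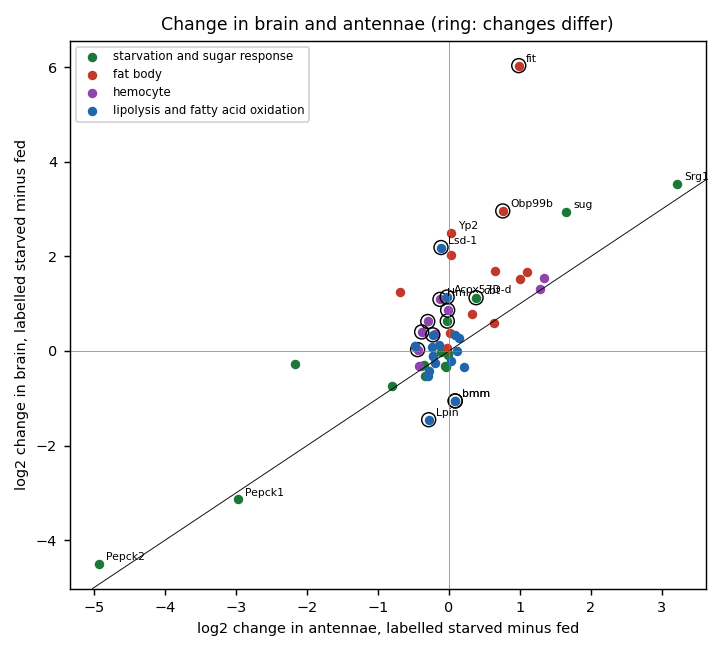
Change in brain (y axis) against change in antennae (x axis) on the log2 scale for genes of 4 lists tested in both tissues, labelled starved minus fed, with the line of equal change and rings around genes whose changes differ by the interaction test. Pepck1, Pepck2 and Srg1 lie near the line, while fit, Obp99b, Lsd-1, bmm and Lpin lie away from it.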

How the data were processed

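Only the 8 brain arrays are described, and the 8 antennal arrays entered the interaction fit. The authors deposited Agilent Feature Extraction 9.1 output, in which the processed signal intensity of each spot was not scaled between arrays, and a table of log2 values that differs from the log2 intensity by 1 constant per array. Of 45020 spots per array, 1417 control spots and the outlier spots were left out, and the 75th percentile of each array was subtracted from the log2 intensity, as in the methods. Spots of 1 probe were averaged. A probe was tested where at least 0.5 of its spots were well above background on all 4 arrays of a group, which left 21838 probes. Of 32162 probes 20826 were matched to 13185 genes through RefSeq names of Release 6, used for names only. Groups were compared by limma 3.58.1 in R 4.3.3, two-sided, with Benjamini-Hochberg adjustment over probes at 0.05. A gene's values are those of its brightest tested probe, and a gene was called where any probe was called and none the other way. The difference of a probe from the mean of the gene's other tested probes was tested alike within arrays. Exact permutation tests of sums used scipy 1.17.1. Both limma steps were tested on simulated data. The number of arrays limits the precision.

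The members and the 36 gene lists were chosen with earlier results of these data known. Named were defining members of a list, up to 4 of its largest increases and decreases with groups that did not overlap, the 10 largest of each direction over named genes, the 8 with the largest probe disagreement, and nutrient, peptide and glial genes whose probes disagreed. All other genes named, such as Ilp5, BomT3, GstD7 and the Hsp70 genes, were chosen after their values were seen. The alternatives were a replicate block, the methods' t-test with the same adjustment, other filters and scalings, normexp with an offset of 50, the deposited log2 table, the mean over the probes of a gene, a 2-fold threshold, and leaving out each array. The hemocyte sum without Col4a1 was added after its values were seen.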

Additional observations from a re-analysis of the deposited data

Results flagged for a closer look

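Single brain arrays stood apart from the other 3 of their group in 22 of 376 groups of 4 searched (5.85%), by a gap to the nearest array that took more than 0.829 of the group's range. Chance flags about 1 in 20 groups. In arrays labelled starved, replicate 1 was high for Prx2 (gap 0.865 of the range). Replicate 2 was low for Hex-A (0.861), Tpi (0.904), mnd (0.835) and RpS15 (0.851). Replicate 3 was high for Thor (0.86), Cyp312a1 (0.838) and Cat (0.875). Replicate 4 was high for Mondo (0.921) and low for Got1 (0.864), Cyp4d20 (0.928) and the storage protein gene Lsp2 (0.948). In arrays labelled fed, replicate 2 was high for Cyp4g1 (0.86), CG7227 (0.842) and phtm (0.839), and replicate 3 was low for Ilp6 (0.903) and BomBc2 (0.93). Replicate 4 labelled fed was high for Tpi (0.867), Lsd-1 (0.897), RpS13 (0.834), the summed level of the citric acid cycle genes (0.923) and that of the cytoplasmic ribosomal protein genes (0.871).

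Of 152 named genes, all called in the main brain fit, 30 had a brain change that differed from the antennal change by the interaction term (limma, adjusted over all genes). Over all genes 3.17% did. Most named genes were picked for a large brain change, so a higher share and a term with the sign of the brain change follow in part from that choice. The value given is the brain change minus the antennal change on the log2 scale. Among nutrient and lipid genes it was 0.745 for cbt, 2.829 for Ilp3, 0.656 for Ilp6, −1.143 for bmm, 0.563 for mdy, 2.299 for Lsd-1, 0.569 for Lsd-2, 1.168 for Acox57D-d and −1.167 for Lpin. Ilp3 and Lsp2 were too dim for a test in antennae, so their values rest on dim antennal spots. The fat body and hemocyte genes flagged had all been called higher in brain, and their values were 5.049 for fit, 3.21 for Lsp2, 2.203 for Obp99b, 1.219 for Hml and 0.922 for eater. Of these, fit was well above background on only 2 of the 4 fed brain arrays. The immune genes flagged had likewise been called higher in brain, with 3.602 for Def, 1.437 for BomS3, 1.967 for PGRP-SD, 1.098 for GNBP3 and 0.973 for nec. It was 1.187 for the transporter gene mnd, 0.676 for eEF1delta, 2.159 for Nplp2, 1.184 for CG6126, 0.664 for Mdr65 and 0.849 for Vmat. Among P450 genes it was −2.701 for Cyp4e3, 2.514 for Cyp4ac2 and 0.788 for Cyp4d20. The steepest differences below 0 were those of CG9114 (−4.928) and CG16786 (−4.808), whose fed brain arrays shared an order of levels.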

How the results depend on the processing

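Of the 152 named genes followed here, all called in the main fit, none changed direction. Genes named as not called were left out, so a call could be kept, lost or reversed but not gained. In fits with all 8 arrays 1423 of 1517 calls were kept and 94 lost. Leaving out 1 array kept 1112 of 1216 calls and lost 104, and fbp, mRpL34, mRpL48, RpL38 and CCHa2-R were lost most often. Brain genes called higher numbered 1299 to 2303 with 1 array left out, lowest without the starved array of replicate 1, and those called lower 2825 to 5072. Called lower were 2366 with quantile scaling and 2262 with median centring, which called 2417 and 2850 higher. With at least 2-fold changes, 296 were higher and 1063 lower. Same-numbered arrays shared a slide, but their deviations had correlations of −0.329, −0.122, 0.295 and 0.055, so the numbers were not treated as pairs. With the replicate block, which is the slide, 1544 genes were higher, 3437 lower and 1464 had probes that disagreed, and 19 named calls were lost, among them Lsd-2, eIF3c and mRpL34 besides those given with their results. Without Col4a1, an alternative chosen after seeing the data, the hemocyte sum ratio was 1.14 (exact permutation p = 0.0857). The fat body sum ratio was 2.02 to 2.36 with 1 array left out, where the smallest exact permutation p is 0.0571.

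With median centring the list medians were 0.42 for glycolysis, 0.33 for the citric acid cycle, 0.35 for oxidative phosphorylation, 0.051 for gluconeogenesis, trehalose and glycogen, 0.36 for fatty acid synthesis, 0.20 for lipolysis, 0.22 for amino acids, 0.015 for the nutrient list, 0.54 for cytoplasmic and 0.27 for mitochondrial ribosomal proteins, 0.40 for translation factors, 0.26 for tRNA synthetases and 0.39 for ribosome biogenesis. They were 0.29 for peptide precursors, 0.30 for receptors, 0.39 for peptide processing, 0.47 for glia, 0.25 for neurons, 0.37 for Toll and Imd, 0.076 for heat shock genes, 0.10 for glutathione transferases, 0.45 for P450 genes, 0.41 for redox genes and 1.88 for fat body. With quantile scaling they were 0.049 for glycolysis, 0.025 for oxidative phosphorylation, 0.18 for cytoplasmic ribosomal proteins, 0.10 for translation factors, 0.13 for tRNA synthetases, 0.24 for receptors and −0.049 for neurons. With normexp they were 1.51 for Turandot, 1.26 for fat body and 0.37 for hemocyte genes. With the mean over probes they were 0.12 for glycolysis, −0.093 for neurons, 1.47 for fat body and 0.39 for hemocyte genes. With 1 array left out the median was 0.016 to 0.14 for tRNA synthetases and −0.029 to 0.064 for neurons. The cause of these shifts was not tested. Dim probes limit the calls, since the share of spots well above background differed between the groups.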
